A study of Homo sapiens with 9 samples.

Results

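Semaphorins, ephrins, Slits and netrins are the 4 families of cues that steer growing axons and migrating cells, and the genes described here are those cues, their receptors and the FLRT proteins that work beside them. They were chosen by symbol, as all genes named SEMA, NRP, PLXN, EFN, EPH, SLIT, ROBO, NTN, UNC5 or FLRT followed by their family letter or number, which gave 71 of the 26364 genes in the count files. RNA was sequenced from MDA-MB-231 cells, a human triple-negative breast cancer line in which an shRNA had stably silenced GLO1, the enzyme that detoxifies methylglyoxal. The groups were the shGLO1#1 clone, the shGLO1#2 clone and the shNT control, with 3 biological replicates of each. Both shGLO1 groups carry an shRNA against GLO1, shNT cells carry a non-targeting shRNA, and all are the same line. Each group is a single clone, so a difference between groups cannot be told apart from a difference between clones, and p-values measure the spread between replicates of a clone. In bulk RNA a lower level in every cell and fewer expressing cells cannot be told apart either.

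The families work as ligands and receptors. Secreted class 3 semaphorins bind neuropilins, which hand the signal to plexins, while membrane-bound semaphorins mostly bind plexins directly. Ephrins sit on the membrane and bind Eph receptor tyrosine kinases of neighbouring cells, with signals in both cells. Slits are secreted and bind Robo receptors, netrins bind DCC, neogenin and the UNC5 receptors, and FLRTs bind UNC5 receptors and latrophilins. In epithelial tumours these systems are best known for their part in cell repulsion, adhesion, migration and vessel growth.

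The libraries held 15314238 to 18495576 counts on genes, of which the 71 genes took 0.349 to 0.354% in shGLO1#1, 0.282 to 0.316% in shGLO1#2 and 0.257 to 0.271% in shNT. That share weighs each gene by its counts, so it follows the abundant genes, such as NRP1 and EPHA2, more than the low ones. GLO1 itself was at 64.2 to 65.9 CPM in shGLO1#1, 14.0 to 15.5 CPM in shGLO1#2 and 312 to 323 CPM in shNT, where CPM is the count scaled to the size of the library, with TMM factors. All 5 mesenchymal markers that define the line (VIM, CD44, AXL, CAV1 and MSN) had counts in every group, with summed levels of 6870 to 7530 CPM in shGLO1#1, 7280 to 7570 CPM in shGLO1#2 and 6790 to 7430 CPM in shNT. The 9 luminal markers summed to 1560 to 1900 CPM in shGLO1#1, 1720 to 1800 CPM in shGLO1#2 and 1960 to 2290 CPM in shNT. Most of that sum was keratin. KRT8 averaged 976.9 CPM in shGLO1#1, 917.4 CPM in shGLO1#2 and 1073 CPM in shNT, and KRT18 640.4, 676.6 and 836.5 CPM in the same order. Of the 6 luminal markers tested, 0 were called in either clone. Of the receptors that define the triple-negative state, ESR1 had 13 counts in shGLO1#1, 3 in shGLO1#2 and 4 in shNT, PGR had 7 in shGLO1#1, 9 in shGLO1#2 and 0 in shNT, and ERBB2 averaged 75.5 CPM in shGLO1#1, 67.9 CPM in shGLO1#2 and 79.8 CPM in shNT. The 8 neuronal markers summed to 8.83 to 10.1 CPM in shGLO1#1, 4.39 to 6.92 CPM in shGLO1#2 and 4.37 to 5.15 CPM in shNT, with NEFL and STMN2 at 0 in every group. SYT1 made up most of this sum, at 9.37 CPM on average in shGLO1#1, 4.62 CPM in shGLO1#2 and 4.33 CPM in shNT, and was called higher in shGLO1#1 (log2 fold change 1.11, edgeR adjusted p = 0.000138), while SNAP25, with 7 counts in shGLO1#1, 41 in shGLO1#2 and 24 in shNT, was called lower there (-1.83, adjusted p = 0.0276). The part of such markers in the results was not tested.

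The promoters below are those of 3 genes that were higher than shNT in the comparison of each clone (PLXNA4, SLIT2 and EPHB3) and of EPHB1, which was lower in each. They were chosen for the large changes of the genes and for holding more CpG sites than the median promoter, so their CpG counts are a description only. Each is the 300 bases from 250 before to 50 after the start in RefSeq (GRCh38.p14), 5′ to 3′ on the strand of the gene, and capitals mark every CpG. They lie at chr7:132576421-132576720 on the minus strand (PLXNA4) and, on the plus strand, at chr4:20251655-20251954 (SLIT2), chr3:184561535-184561834 (EPHB3) and chr3:134795010-134795309 (EPHB1).
PLXNA4: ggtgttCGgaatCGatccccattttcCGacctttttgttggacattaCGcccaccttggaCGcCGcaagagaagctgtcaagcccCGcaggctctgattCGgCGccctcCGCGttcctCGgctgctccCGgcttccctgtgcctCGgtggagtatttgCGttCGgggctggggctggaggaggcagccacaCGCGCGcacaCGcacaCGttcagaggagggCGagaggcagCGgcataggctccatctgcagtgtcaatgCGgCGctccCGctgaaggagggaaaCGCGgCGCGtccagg
SLIT2: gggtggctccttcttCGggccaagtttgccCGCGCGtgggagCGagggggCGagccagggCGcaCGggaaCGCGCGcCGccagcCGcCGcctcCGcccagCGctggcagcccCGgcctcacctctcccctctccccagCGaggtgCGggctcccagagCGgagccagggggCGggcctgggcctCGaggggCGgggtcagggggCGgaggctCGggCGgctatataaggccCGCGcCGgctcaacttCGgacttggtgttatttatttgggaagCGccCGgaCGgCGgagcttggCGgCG
EPHB3: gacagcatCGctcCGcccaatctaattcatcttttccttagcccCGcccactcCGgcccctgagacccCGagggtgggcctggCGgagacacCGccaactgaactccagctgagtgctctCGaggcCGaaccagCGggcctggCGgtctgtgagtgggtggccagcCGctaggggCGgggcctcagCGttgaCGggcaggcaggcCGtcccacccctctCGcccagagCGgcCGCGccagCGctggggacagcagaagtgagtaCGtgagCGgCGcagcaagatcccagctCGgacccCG
EPHB1: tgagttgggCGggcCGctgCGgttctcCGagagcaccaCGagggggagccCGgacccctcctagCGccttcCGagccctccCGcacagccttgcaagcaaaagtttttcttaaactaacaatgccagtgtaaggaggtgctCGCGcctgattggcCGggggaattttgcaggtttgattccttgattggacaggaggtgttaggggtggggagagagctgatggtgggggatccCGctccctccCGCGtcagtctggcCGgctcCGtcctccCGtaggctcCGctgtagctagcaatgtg

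These windows hold 30 CpG sites in PLXNA4, 36 in SLIT2, 26 in EPHB3 and 19 in EPHB1. A promoter was found for 61 of the 71 genes, and their median was 21 CpG sites, against 14 over all 27305 promoters of the same length. The 14 promoters of genes called higher in at least 1 clone and the 5 of genes called lower, however, each had a median of 14. The GC-rich element GGCGCC, to which SMADs of the BMP pathway bind, was searched on both strands, as were the motifs below, and none of them contains another. It stood at base 101 of the PLXNA4 window, in 18 of the 61 promoters (29.5%) and in 19.0% of all promoters. Among the genes that were tested for expression it was in 11 of 47 promoters (23.4%), among those called higher in 2 of 14 (14.3%) and among those called lower in 1 of 5. The element is made of G and C alone, and the median GC content was 65.7% in the 61 promoters and 58.3% in all. The part of GC content in these shares was not tested. The AP-1 letters TGACTCA and TGAGTCA, which are 1 site read on either strand, were in 0 of the 61 and in 4.92% of all promoters. The E-box CACGTG was in 5 of the 61 (8.20%) and in 7.43% of all, and CAGGTG, the E-box letters bound by ZEB and SNAIL factors, was in 10 of the 61 (16.4%) and in 20.6% of all. In the 14 promoters of genes called higher these were in 2 (CACGTG) and 1 (CAGGTG), and in the 5 of genes called lower in 1 and 1.

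Of the 71 genes, 52 had enough counts to be tested. Calls required a change of over 1 on the log2 scale in either direction and an adjusted p below 0.05 in edgeR's quasi-likelihood test over 13704 genes. In shGLO1#1 against shNT, 15 of the 52 were called higher, where 5.98% of all genes tested were, and 5 were called lower, where 2.75% of all were. In shGLO1#2 against shNT, 9 were called higher and 1 lower, where 5.09% of all genes tested were higher and 2.59% lower. The 2 comparisons share the shNT libraries. The median log2 fold change of the 52 genes was 0.51 in shGLO1#1 and 0.18 in shGLO1#2, while the median of all genes lay within 0.01 of 0 in each. Among the 52, 8 had at least 1 shNT library under the count limit of the filter (0.606 CPM), among them EPHB3, FLRT3, PLXNA4, SEMA6A, SEMA6C and SEMA6D, so that they passed the filter through libraries of a clone. FLRT3 passed through the shGLO1#1 libraries alone, EPHB3 through the shGLO1 libraries alone and EPHB1 through the shNT libraries alone. ROBO2 had its shGLO1#1 libraries under the limit and SEMA3D the first of them, and both genes were called lower in shGLO1#1. A difference was thus built into the testing of these genes. The genes named above with an shNT library under the limit were all called higher in shGLO1#1, and all but FLRT3 in shGLO1#2. EPHA10 and SEMA3G, which also had an shNT library under the limit, were called in neither clone. The counts of called genes include all of these, and EPHB1 is the 1 gene called lower in shGLO1#2. The heat map by library shows the genes by family.

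**Figure D1:**
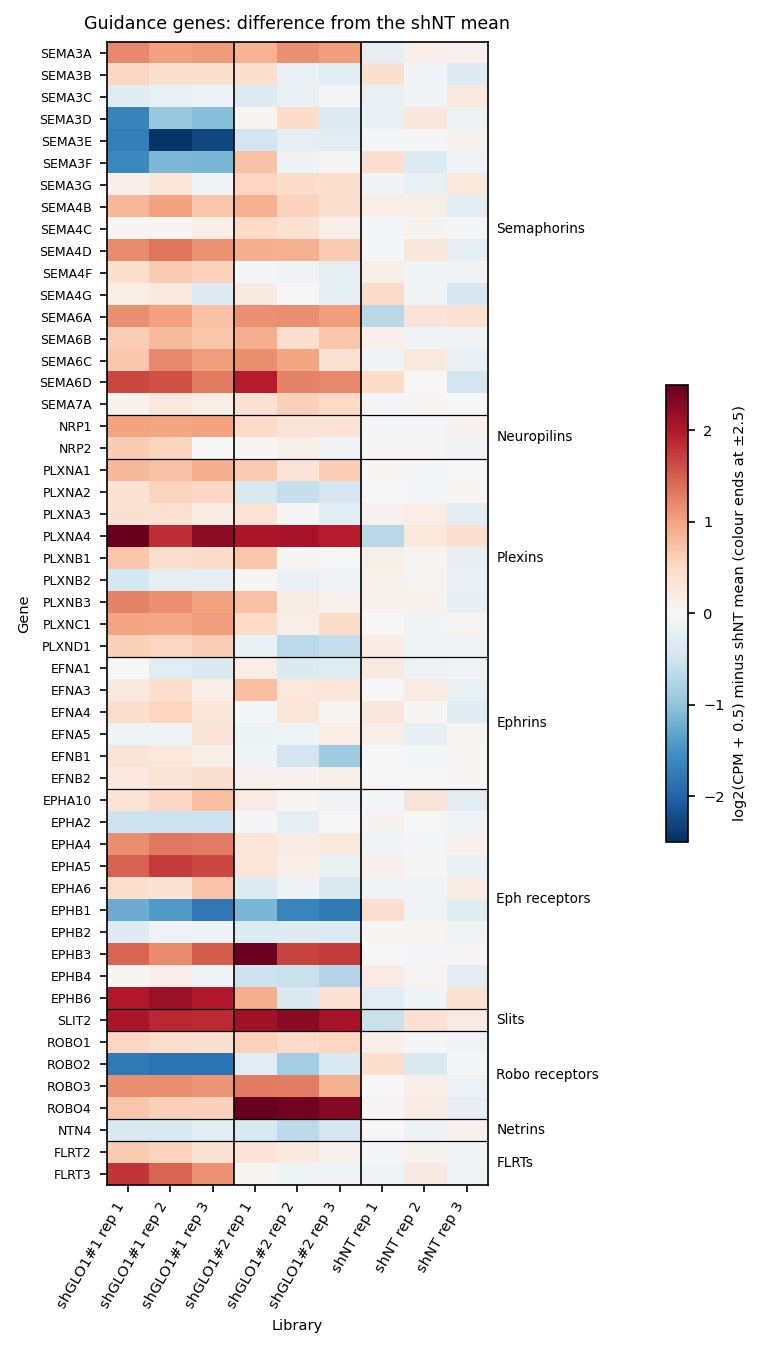
Colour gives log2(CPM + 0.5) minus the shNT mean for each of the 52 tested genes (rows, by family) in each of the 9 libraries (columns: shGLO1#1, shGLO1#2, shNT), and ends at ±2.5. PLXNA4, SLIT2 and EPHB3 are red in all 6 shGLO1 libraries and EPHB1 is blue in all 6, whereas SEMA3D, SEMA3E and SEMA3F are blue in the shGLO1#1 libraries and close to shNT in shGLO1#2.

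**Figure D2:**
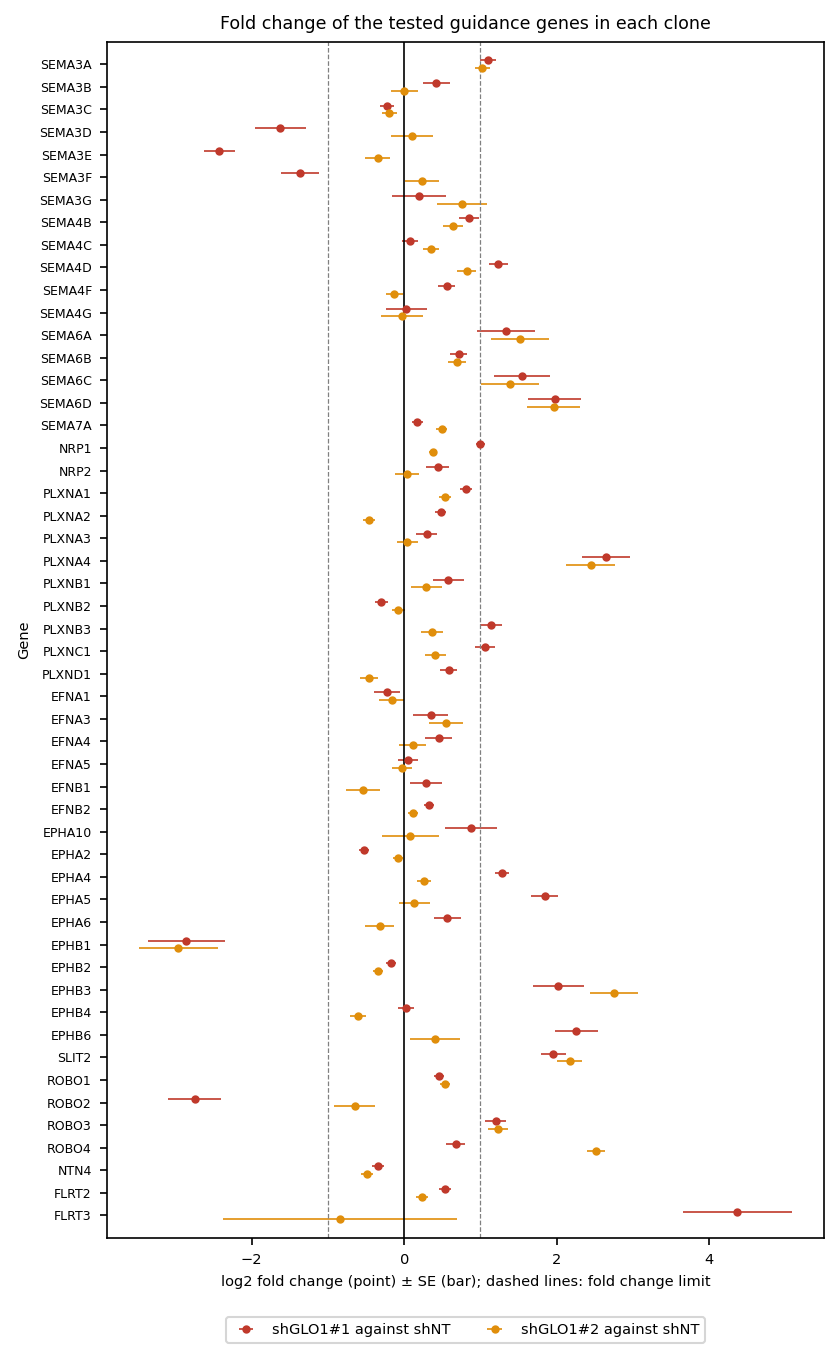
Points are log2 fold changes against shNT in shGLO1#1 (red) and shGLO1#2 (orange), and bars are the SE from edgeR (3 libraries per group), with the limit of 1 dashed. The fold changes of shGLO1#1 run from -2.86 (EPHB1) to 4.36 (FLRT3, which had 2 counts in shNT), and those of shGLO1#2 from -2.96 (EPHB1) to 2.75 (EPHB3).

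Among the semaphorins, 17 of 20 were tested. In shGLO1#1 5 were called higher and 3 lower, and in shGLO1#2 4 were called higher and 0 lower. SEMA3A, the secreted semaphorin that binds NRP1 and repels axons and endothelial cells, was at 62.5, 55.3 and 56.7 CPM in shGLO1#1, 49.3, 59.9 and 56.4 CPM in shGLO1#2 and 22.7, 29.5 and 29.01 CPM in shNT. Every shGLO1 library lay above every shNT library. Its log2 fold change was 1.10 ± 0.10 (SE) in shGLO1#1 (edgeR adjusted p = 1.69e-06) and 1.03 ± 0.10 in shGLO1#2 (adjusted p = 4.17e-06). Without the first shNT replicate these values were 0.99 in shGLO1#1 and 0.92 in shGLO1#2, under the limit of 1, and the call in shGLO1#2 was also lost without the second shGLO1#2 replicate.

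3 other class 3 semaphorins moved the other way in shGLO1#1. SEMA3E, a ligand that acts on PLXND1 without a neuropilin, was at 2.35, 1.2 and 1.43 CPM in shGLO1#1, 6.15, 7.43 and 7.2 CPM in shGLO1#2 and 8.53, 8.48 and 9.41 CPM in shNT, and its log2 fold change was -2.42 ± 0.20 in shGLO1#1 (adjusted p = 6.5e-07) and -0.35 ± 0.17 in shGLO1#2 (adjusted p = 0.118). SEMA3F, the NRP2 ligand known as a suppressor of tumour growth and metastasis, was at 5.68, 8.11 and 7.98 CPM in shGLO1#1, 30.8, 16.6 and 18.7 CPM in shGLO1#2 and 24.8, 14.4 and 17.1 CPM in shNT. It fell by 1.36 ± 0.25 on the log2 scale in shGLO1#1 (adjusted p = 0.000573), whereas the shGLO1#2 libraries overlapped those of shNT (0.23 ± 0.23, adjusted p = 0.449). SEMA3D was low, at 0.432, 1.03 and 0.912 CPM in shGLO1#1, 2.56, 3.57 and 1.86 CPM in shGLO1#2 and 2.15, 3.13 and 2.21 CPM in shNT. That is a log2 fold change of -1.62 ± 0.34 in shGLO1#1 (adjusted p = 0.00137) and 0.11 ± 0.28 in shGLO1#2 (adjusted p = 0.798).

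SEMA3E, SEMA3A and SEMA3D are neighbours in this order on chromosome 7, with no other protein-coding gene between them in RefSeq, yet in shGLO1#1 the middle gene was called higher and the outer pair lower. The remaining class 3 members were not called in either clone. SEMA3C, which promotes migration of breast cancer cells, stayed at 97.5 to 109 CPM in shGLO1#1, 97.0 to 117 CPM in shGLO1#2 and 107 to 143 CPM in shNT (log2 fold changes -0.23 in shGLO1#1 and -0.19 in shGLO1#2), with overlapping groups. SEMA3B had log2 fold changes of 0.42 in shGLO1#1 and 0.00 in shGLO1#2 with overlap in each clone, and SEMA3G had 0.19 in shGLO1#1 and 0.76 in shGLO1#2 at under 1 CPM in every library.

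Of the 4 class 6 semaphorins, which span the membrane and bind A-type plexins, 3 of low level (SEMA6A, SEMA6C and SEMA6D) were called higher in each clone, and SEMA6B was called in neither. SEMA6D was at 3.58, 3.37 and 2.68 CPM in shGLO1#1, 4.51, 2.57 and 2.48 CPM in shGLO1#2 and 1.28, 0.782 and 0.443 CPM in shNT, and its log2 fold change was 1.97 ± 0.34 in shGLO1#1 (adjusted p = 0.000394) and 1.96 ± 0.35 in shGLO1#2 (adjusted p = 0.000524). SEMA6C was at 1.11, 1.85 and 1.6 CPM in shGLO1#1, 1.77, 1.51 and 0.807 CPM in shGLO1#2 and 0.47, 0.717 and 0.388 CPM in shNT. It was higher by 1.55 ± 0.37 in shGLO1#1 (adjusted p = 0.00389) and 1.38 ± 0.38 in shGLO1#2 (adjusted p = 0.0106). SEMA6A was at 1.79, 1.58 and 1.2 CPM in shGLO1#1, 1.77, 1.79 and 1.61 CPM in shGLO1#2 and 0.134, 0.782 and 0.83 CPM in shNT, where the first replicate was lowest. Its log2 fold change of 1.33 ± 0.38 in shGLO1#1 (adjusted p = 0.0118) was 0.90 without that replicate, and in shGLO1#2 it was 1.52 ± 0.38 (adjusted p = 0.00593). An antisense gene, SEMA6A-AS1, overlaps 2.91% of the exon length of SEMA6A and had 21 counts in shGLO1#1, 28 in shGLO1#2 and 32 in shNT, and without strand reads of such overlaps cannot be separated. SEMA6B, by contrast, was at 45.9, 51.9 and 48.4 CPM in shGLO1#1, 56.5, 39.2 and 48.5 CPM in shGLO1#2 and 32.4, 28.4 and 28.4 CPM in shNT, with log2 fold changes of 0.71 in shGLO1#1 (adjusted p = 0.000179) and 0.69 in shGLO1#2 (adjusted p = 0.000281) that stayed under the limit.

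SEMA4D, the PLXNB1 ligand that promotes vessel growth and invasion, was at 43.9, 48.9 and 42.1 CPM in shGLO1#1, 36, 35.4 and 29.8 CPM in shGLO1#2 and 18.2, 23.2 and 16.1 CPM in shNT. It was called in shGLO1#1 (log2 fold change 1.23 ± 0.12, adjusted p = 2.86e-06) and not in shGLO1#2, where it was 0.82 ± 0.12 (adjusted p = 0.000138) and every library still lay above shNT. SEMA4B was likewise above shNT in every shGLO1 library, with log2 fold changes of 0.85 in shGLO1#1 and 0.64 in shGLO1#2. SEMA7A, the GPI-anchored semaphorin that binds PLXNC1 and integrins, had 0.17 in shGLO1#1 and 0.49 in shGLO1#2. SEMA4C, SEMA4F and SEMA4G lay between -0.13 and 0.56 in the 2 clones, and SEMA4G shares 16.8% of its exon length with MRPL43, a gene on the other strand at 41.0 ± 1.15 CPM in shGLO1#1, 50.4 ± 2.11 CPM in shGLO1#2 and 61.1 ± 4.07 CPM in shNT.

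Of the receptors for semaphorins, both neuropilins and all 9 plexins were tested, and 3 plexins were called higher in shGLO1#1 and 1, PLXNA4, in shGLO1#2. PLXNA4, which pairs with NRP1 for SEMA3A and binds SEMA6A directly, was at 6.48, 3.92 and 5.3 CPM in shGLO1#1, 4.57, 4.63 and 4.34 CPM in shGLO1#2 and 0.269, 0.978 and 1.16 CPM in shNT. No shNT library reached the lowest shGLO1 library, and the log2 fold change was 2.65 ± 0.31 in shGLO1#1 (adjusted p = 1.49e-05) and 2.44 ± 0.32 in shGLO1#2 (adjusted p = 4.37e-05). PLXNB3, the receptor of SEMA5A, was at 81.7, 76.8 and 69.5 CPM in shGLO1#1, 57.7, 39.1 and 37.1 CPM in shGLO1#2 and 37.02, 36.9 and 30.01 CPM in shNT, and was called in shGLO1#1 (1.14 ± 0.14, adjusted p = 2.16e-05) but not in shGLO1#2 (0.37 ± 0.14, adjusted p = 0.0577). It shares 19.6% of its exon length with SRPK3 on the same strand, which had 8 counts in shGLO1#1, 7 in shGLO1#2 and 3 in shNT. PLXNC1, the receptor of SEMA7A, was at 10.2, 10.01 and 10.6 CPM in shGLO1#1, 7.19, 5.53 and 6.89 CPM in shGLO1#2 and 4.91, 4.63 and 5.2 CPM in shNT. It was higher by 1.06 ± 0.13 in shGLO1#1 (adjusted p = 2.42e-05) and 0.41 ± 0.14 in shGLO1#2 (adjusted p = 0.0333), which passed the fold limit only in shGLO1#1.

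NRP1, the co-receptor of class 3 semaphorins and of VEGF, was the second most abundant of the genes per exon length. It was at 862, 846 and 868 CPM in shGLO1#1, 596, 539.9 and 544 CPM in shGLO1#2 and 418, 414 and 457 CPM in shNT, and each group stood clear of the others. Its log2 fold change of 0.9975 ± 0.06 in shGLO1#1 (adjusted p = 3.14e-08) fell just short of the limit of 1 and passed it under 7 of 15 alternatives, and in shGLO1#2 it was 0.38 ± 0.06 (adjusted p = 0.000105). NRP2, the SEMA3F receptor, was at 16.9, 15.8 and 10.6 CPM in shGLO1#1, 10.96, 11.6 and 10.1 CPM in shGLO1#2 and 10.9, 10.9 and 10.1 CPM in shNT, with overlapping groups. PLXNA1, the most abundant A-type plexin per exon length, was above shNT in all shGLO1 libraries, with log2 fold changes of 0.81 in shGLO1#1 (adjusted p = 1.94e-06) and 0.53 in shGLO1#2 (adjusted p = 9.36e-05).

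PLXND1 and PLXNA2 lay on opposite sides of shNT in the 2 clones. PLXND1, the receptor of SEMA3E, was at 144, 138 and 144 CPM in shGLO1#1, 84.7, 59.4 and 62.99 CPM in shGLO1#2 and 107, 88.5 and 89.2 CPM in shNT. The log2 difference from shNT was 0.58 ± 0.11 in shGLO1#1 (adjusted p = 0.000674) and -0.46 ± 0.11 in shGLO1#2 (adjusted p = 0.005). PLXNA2, a receptor of class 6 semaphorins, was at 66.9, 77.2 and 74.7 CPM in shGLO1#1, 40.1, 34.9 and 38.8 CPM in shGLO1#2 and 51.7, 50.9 and 54.3 CPM in shNT. It had log2 fold changes of 0.48 ± 0.07 (adjusted p = 0.00012) in shGLO1#1 and -0.46 ± 0.07 (adjusted p = 0.000253) in shGLO1#2. PLXNA3, PLXNB1 and PLXNB2 lay between -0.30 and 0.58 in the 2 clones.

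**Figure D3:**
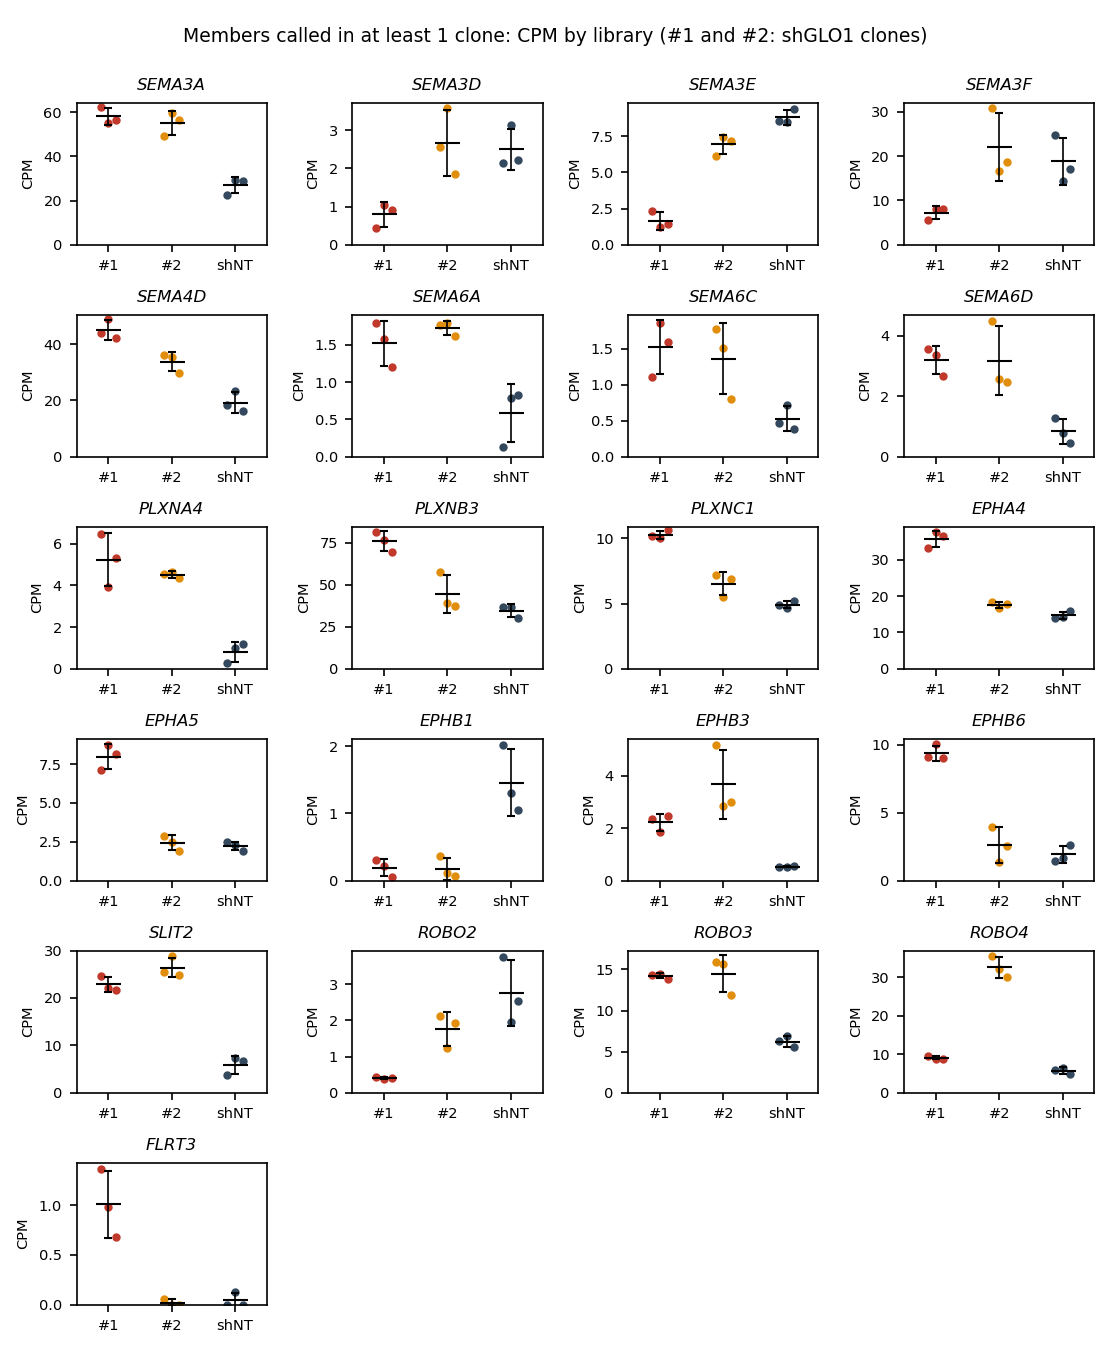
CPM by library (points, 3 per group) with the mean and SD of the 3 libraries (black) for the genes called against shNT in either clone, on axes that start at 0. PLXNA4, SLIT2 and ROBO3 stand above shNT in every library of each clone, EPHA4, EPHA5 and EPHB6 stand apart mostly in shGLO1#1, and ROBO4 stands apart in shGLO1#2, at 30.0 to 35.5 CPM.

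None of the 6 ephrins tested was called in either clone. EFNB2, the EPHB4 ligand of arterial endothelium, was the most abundant per exon length and was at 55.1, 58.5 and 61.2 CPM in shGLO1#1, 50.01, 49.2 and 51.7 CPM in shGLO1#2 and 46.02, 46.2 and 47.3 CPM in shNT, with log2 fold changes of 0.33 in shGLO1#1 (adjusted p = 0.000678) and 0.11 in shGLO1#2 (adjusted p = 0.17). EFNB1 was at 3.7, 3.54 and 3.19 CPM in shGLO1#1, 2.62, 1.95 and 1.3 CPM in shGLO1#2 and 2.89, 2.74 and 2.93 CPM in shNT, so that the clones lay on opposite sides of shNT by less than the limit. EFNA1, the main EPHA2 ligand, EFNA3, EFNA4 and EFNA5 had log2 fold changes of -0.22 to 0.55 in the 2 clones, where only EFNA4 in shGLO1#1 had an adjusted p under 0.05 (0.45, adjusted p = 0.0498). EFNA3 and EFNA4 share exons with a read-through transcript on the same strand, and their counts are uncertain to that degree.

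Of the 14 Eph receptors 10 were tested, and 4 were called higher and 1 lower in shGLO1#1, against 1 higher and 1 lower in shGLO1#2. EPHB3, a B-class receptor known in colon as a Wnt target that keeps cells in place, was at 2.35, 1.85 and 2.45 CPM in shGLO1#1, 5.18, 2.85 and 2.98 CPM in shGLO1#2 and 0.537, 0.522 and 0.554 CPM in shNT. The shGLO1 libraries were all above shNT, and the log2 fold change was 2.02 ± 0.34 in shGLO1#1 (adjusted p = 0.000263) and 2.75 ± 0.31 in shGLO1#2 (adjusted p = 1.39e-05). EPHB1, a receptor of the same class, was at 0.309, 0.218 and 0.057 CPM in shGLO1#1, 0.365, 0.112 and 0.0621 CPM in shGLO1#2 and 2.02, 1.3 and 1.05 CPM in shNT, or 10 counts in shGLO1#1, 9 in shGLO1#2 and 69 in shNT. Its log2 fold change was -2.86 ± 0.50 in shGLO1#1 (adjusted p = 0.000417) and -2.96 ± 0.52 in shGLO1#2 (adjusted p = 0.000465). It was tested only because its 3 shNT libraries passed the filter, and with a minimum mean of 1 CPM it was not tested.

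3 Eph receptors were called higher in shGLO1#1 and not in shGLO1#2. EPHB6, which lacks kinase activity, was at 9.07, 10.01 and 9.01 CPM in shGLO1#1, 3.96, 1.34 and 2.54 CPM in shGLO1#2 and 1.48, 1.7 and 2.6 CPM in shNT. This corresponds to a log2 fold change of 2.26 ± 0.28 in shGLO1#1 (adjusted p = 2.29e-05), and in shGLO1#2 it was 0.41 ± 0.33 (adjusted p = 0.36) with overlap. EPHA5 was at 7.1, 8.7 and 8.15 CPM in shGLO1#1, 2.86, 2.51 and 1.92 CPM in shGLO1#2 and 2.49, 2.28 and 1.94 CPM in shNT, a log2 fold change of 1.84 ± 0.18 in shGLO1#1 (adjusted p = 2.38e-06) and 0.13 ± 0.21 in shGLO1#2 (adjusted p = 0.653). An antisense gene, EPHA5-AS1, overlaps 5.44% of its exon length and had 37 counts in shGLO1#1, 21 in shGLO1#2 and 18 in shNT, while EPHA5 had 418 in shGLO1#1, 123 in shGLO1#2 and 107 in shNT. EPHA4, which binds ephrins of both classes, was at 33.3, 37.5 and 36.4 CPM in shGLO1#1, 18.3, 16.7 and 17.8 CPM in shGLO1#2 and 13.98, 14.2 and 15.9 CPM in shNT. It was higher by 1.28 ± 0.09 (adjusted p = 1.25e-07) in shGLO1#1 and by 0.25 ± 0.09 (adjusted p = 0.0405) in shGLO1#2.

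EPHA2, the receptor of EFNA1 and the most abundant of all these genes per exon length, was at 398, 394 and 397 CPM in shGLO1#1, 554, 488 and 569 CPM in shGLO1#2 and 605, 570 and 534 CPM in shNT. Its log2 fold change was -0.52 ± 0.06 in shGLO1#1 (adjusted p = 1.75e-05), where the libraries stood clear of shNT, and -0.08 ± 0.06 in shGLO1#2 (adjusted p = 0.317), where they overlapped. EPHB4, the EFNB2 receptor, was at 72.2, 76.05 and 65.2 CPM in shGLO1#1, 48.4, 47.2 and 41.7 CPM in shGLO1#2 and 79.5, 72.5 and 57.7 CPM in shNT. Its libraries lay below shNT in shGLO1#2 (-0.61 ± 0.11, adjusted p = 0.000447), while shGLO1#1 overlapped shNT (0.03). EPHB2 had log2 fold changes of -0.18 in shGLO1#1 and -0.34 in shGLO1#2, EPHA6 of 0.57 in shGLO1#1 and -0.32 in shGLO1#2, and EPHA10 of 0.87 in shGLO1#1 and 0.08 in shGLO1#2.

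SLIT2, the ligand of ROBO1 and ROBO2, was at 24.7, 22.2 and 21.7 CPM in shGLO1#1, 25.6, 28.8 and 24.9 CPM in shGLO1#2 and 3.63, 7.3 and 6.59 CPM in shNT, where the first replicate was lowest. Every shGLO1 library lay above every shNT library, and the log2 fold change was 1.96 ± 0.17 in shGLO1#1 (adjusted p = 9.38e-07) and 2.167 ± 0.17 in shGLO1#2 (adjusted p = 5.27e-07). ROBO1 was at 69.4, 65.7 and 63.4 CPM in shGLO1#1, 72.2, 67.7 and 70.5 CPM in shGLO1#2 and 52.5, 47.2 and 45.2 CPM in shNT, and its log2 fold changes of 0.45 in shGLO1#1 (adjusted p = 0.000111) and 0.54 in shGLO1#2 (adjusted p = 3.17e-05) were under the limit. ROBO2, its neighbour on chromosome 3, was at 0.432, 0.381 and 0.399 CPM in shGLO1#1, 2.13, 1.23 and 1.92 CPM in shGLO1#2 and 3.76, 1.96 and 2.55 CPM in shNT. The log2 fold change of this receptor was -2.74 ± 0.35 in shGLO1#1 (adjusted p = 2.72e-05) and -0.65 ± 0.27 in shGLO1#2 (adjusted p = 0.0749), where the groups overlapped.

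ROBO3, which in mammals binds NELL2 and has little affinity for Slits, was at 14.4, 14.4 and 13.9 CPM in shGLO1#1, 15.9, 15.7 and 11.9 CPM in shGLO1#2 and 6.25, 6.85 and 5.54 CPM in shNT. In log2 terms it changed by 1.20 ± 0.13 in shGLO1#1 (adjusted p = 9.18e-06) and 1.23 ± 0.13 in shGLO1#2 (adjusted p = 9.47e-06). NELL2 averaged 2.82 ± 0.559 CPM in shGLO1#1, 4.56 ± 1.11 CPM in shGLO1#2 and 0.468 ± 0.301 CPM in shNT (SD, n = 3), a log2 fold change of 2.55 in shGLO1#1 (adjusted p = 0.000108) and 3.24 in shGLO1#2 (adjusted p = 1.02e-05). ROBO4, the Robo of endothelial cells and the neighbour of ROBO3 on chromosome 11, was at 9.57, 8.87 and 8.84 CPM in shGLO1#1, 35.5, 32.3 and 29.97 CPM in shGLO1#2 and 5.78, 6.52 and 4.87 CPM in shNT. It was higher by 2.51 ± 0.12 in shGLO1#2 (adjusted p = 1.15e-08) and by 0.67 ± 0.13 in shGLO1#1 (adjusted p = 0.000747).

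Endothelial markers were read beside ROBO4. Of 8, 5 had a count in shGLO1#1, 7 in shGLO1#2 and 5 in shNT, and their summed level was 184 to 198 CPM in shGLO1#1, 155 to 180 CPM in shGLO1#2 and 171 to 213 CPM in shNT. Nearly all of that sum was ESAM, at 188 ± 6.96 CPM in shGLO1#1, 158 ± 12.7 CPM in shGLO1#2 and 186 ± 22.2 CPM in shNT (SD, n = 3), so that it does not describe the other markers. CLDN5 was at 0 in every library, and CDH5 and EMCN were at 0 in shGLO1#1 and shNT. PECAM1 was called higher in shGLO1#1 (log2 fold change 1.66) and in shGLO1#2 (1.90), and VWF and TIE1 in shGLO1#2 (2.466 and 2.174). Each of these averaged under 4 CPM. In shNT, VWF averaged 0.144 CPM and TIE1 0.304 CPM, under the filter limit of 0.606 CPM, so they passed the filter through libraries of a clone. A difference was thus built into their testing. VWF had 11 counts in shGLO1#1, 42 in shGLO1#2 and 7 in shNT, and TIE1 had 34 in shGLO1#1, 68 in shGLO1#2 and 14 in shNT. TEK was not tested, with 8 counts in shGLO1#1, 4 in shGLO1#2 and 6 in shNT. ESAM was not called in shGLO1#2 (-0.23, edgeR adjusted p = 0.0324). The part of these markers in the result for ROBO4 was not tested. Transcripts on the other strand overlap 15.5% and 5.5% of the exon length of ROBO4.

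Of the 4 netrins only NTN4 was tested, and of the 4 UNC5 receptors none. NTN4, a netrin of basement membranes that binds laminin, was at 87.9, 87.1 and 93.2 CPM in shGLO1#1, 87.2, 71.97 and 84.3 CPM in shGLO1#2 and 114, 104 and 122 CPM in shNT. All shGLO1 libraries lay below all shNT libraries, with log2 fold changes of -0.34 ± 0.08 in shGLO1#1 (adjusted p = 0.0025) and -0.48 ± 0.08 in shGLO1#2 (adjusted p = 0.000239), under the limit. NTN1, the classic axon attractant, and UNC5A had 0 counts in all 9 libraries, which allows a level of up to 0.0199 CPM over them. NTN5 had 11 counts in shGLO1#1, 24 in shGLO1#2 and 5 in shNT, and UNC5B, the most counted UNC5 receptor, had 19 in shGLO1#1, 13 in shGLO1#2 and 9 in shNT.

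FLRT2, a ligand of UNC5 receptors, was at 149.5, 139 and 122 CPM in shGLO1#1, 119, 112 and 102 CPM in shGLO1#2 and 92.6, 101 and 89.8 CPM in shNT, and its log2 fold changes were 0.54 in shGLO1#1 (adjusted p = 9.92e-05) and 0.23 in shGLO1#2 (adjusted p = 0.0333). FLRT3 was at 1.36, 0.979 and 0.684 CPM in shGLO1#1, 0.0609, 0 and 0 CPM in shGLO1#2 and 0, 0.13 and 0 CPM in shNT, or 52 counts in shGLO1#1, 1 in shGLO1#2 and 2 in shNT. It was called higher in shGLO1#1 (adjusted p = 0.000231), by a ratio of 24.1 with a counting interval (exact, 95%) of 6.34 to 204, and no fold can be given for shGLO1#2. Among the 19 genes under the filter, EFNB3 had 32 counts in shGLO1#1, 11 in shGLO1#2 and 1 in shNT, a ratio to shNT of 29.6 in shGLO1#1 (interval 4.95 to 1210) and 10.5 in shGLO1#2 (interval 1.53 to 453). EPHA7 had 16 counts in shGLO1#1, 23 in shGLO1#2 and 7 in shNT. SLIT1 had 9 in shGLO1#1, 19 in shGLO1#2 and 19 in shNT, and 12 others (EFNA2, EPHA1, EPHA3, EPHA8, FLRT1, NTN3, SEMA4A, SEMA5A, SEMA5B, SLIT3, UNC5C and UNC5D) had at most 6 in any group. These intervals cover counting error only.

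The clones were also compared with each other. In shGLO1#2 against shGLO1#1, 5 of the 52 genes were called higher, where 3.33% of all genes tested were, and 5 lower, where 3.75% were. The higher ones were ROBO2 (2.099 ± 0.37, adjusted p = 0.000428), SEMA3E (2.08 ± 0.21, adjusted p = 3.03e-06), ROBO4 (1.84 ± 0.11, adjusted p = 4.79e-08), SEMA3D (1.73 ± 0.33, adjusted p = 0.000749) and SEMA3F (1.60 ± 0.25, adjusted p = 0.000142). The lower ones were EPHB6 (-1.85 ± 0.27, adjusted p = 8.15e-05), EPHA5 (-1.71 ± 0.17, adjusted p = 3.76e-06), PLXND1 (-1.04 ± 0.11, adjusted p = 5.64e-06), EPHA4 (-1.03 ± 0.09, adjusted p = 6.08e-07) and FLRT3, whose counts of 1 and 52 give a ratio of 50.3 in favour of shGLO1#1 (interval 8.64 to 2030). The calls of EPHA4 and PLXND1 rest on values close to 1 and were lost at -0.99 and -0.94 when a replicate was left out. For SEMA4D (-0.41, adjusted p = 0.00958), PLXNB3 (-0.77, adjusted p = 0.000455) and PLXNC1 (-0.65, adjusted p = 0.000885) the difference between the clones passed the adjusted p but not the fold limit.

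Ligands and receptors were set side by side as 88 known pairs, of which 50 had both genes tested. Pairs share genes and are therefore not independent. In shGLO1#1, 2 pairs had ligand and receptor called higher (SEMA3A with PLXNA4 and SEMA6A with PLXNA4), 1 had them called in opposite directions (SLIT2 higher, ROBO2 lower), 14 had only the ligand called, 16 only the receptor and 17 neither. In shGLO1#2 the same 2 pairs, which rest on the same receptor, had both called higher, 0 were opposite, 7 had only the ligand called, 6 only the receptor and 35 neither. Without the first shNT replicate neither ligand was called in shGLO1#1 (SEMA3A 0.99, SEMA6A 0.90), which left 0 of these 2 pairs, and SEMA3A was not called in shGLO1#2 (0.92), which left 1. Under the 7 alternatives that called NRP1 in shGLO1#1, SEMA3A with NRP1 was such a pair as well. PLXNA4 and SEMA6A had shNT libraries under the count limit of the filter, and ROBO2 had its shGLO1#1 libraries under it. A difference was thus built into the testing of these genes, and the pair counts include them. SLIT2 was at 3.39 ± 0.239 CPM per kb of exon in shGLO1#1, 3.91 ± 0.306 in shGLO1#2 and 0.866 ± 0.289 in shNT, and its receptor ROBO1 at 8.46 ± 0.388 in shGLO1#1, 8.97 ± 0.287 in shGLO1#2 and 6.18 ± 0.483 in shNT (mean ± SD, n = 3). ROBO2 was at 0.0424 ± 0.00272 in shGLO1#1, 0.185 ± 0.0497 in shGLO1#2 and 0.289 ± 0.0967 in shNT, so that ROBO1 was the more abundant of the SLIT2 receptors in every group.

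Levels of different genes were compared per kb of exon. EPHA2 was at 100.4, 99.5 and 100.1 CPM per kb in the shGLO1#1 libraries, 136 ± 10.9 in shGLO1#2 and 144 ± 8.94 in shNT (mean ± SD), whereas its ligand EFNA1 was at 4.1 ± 0.541 in shGLO1#1, 4.27 ± 0.964 in shGLO1#2 and 4.79 ± 0.688 in shNT. NRP1 was at 79.3 ± 1.04 CPM per kb in shGLO1#1, 51.7 ± 2.87 in shGLO1#2 and 39.7 ± 2.166 in shNT, and its ligand SEMA3A was at 7.004 ± 0.455 in shGLO1#1, 6.64 ± 0.652 in shGLO1#2 and 3.26 ± 0.455 in shNT. PLXNA4, the receptor in the pairs with both genes higher, was at 0.324 ± 0.0794 in shGLO1#1, 0.28 ± 0.00943 in shGLO1#2 and 0.0497 ± 0.0292 in shNT, under PLXNA1 at 38.05 ± 2.24 in shGLO1#1, 31.4 ± 3.71 in shGLO1#2 and 21.6 ± 0.59 in shNT. Among the Ephs that were called, EPHB3 was at 0.523 ± 0.0759 in shGLO1#1, 0.866 ± 0.309 in shGLO1#2 and 0.127 ± 0.00377 in shNT, under EPHB4 at 16.4 ± 1.27 in shGLO1#1, 10.5 ± 0.82 in shGLO1#2 and 16.1 ± 2.56 in shNT.

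**Figure D4:**
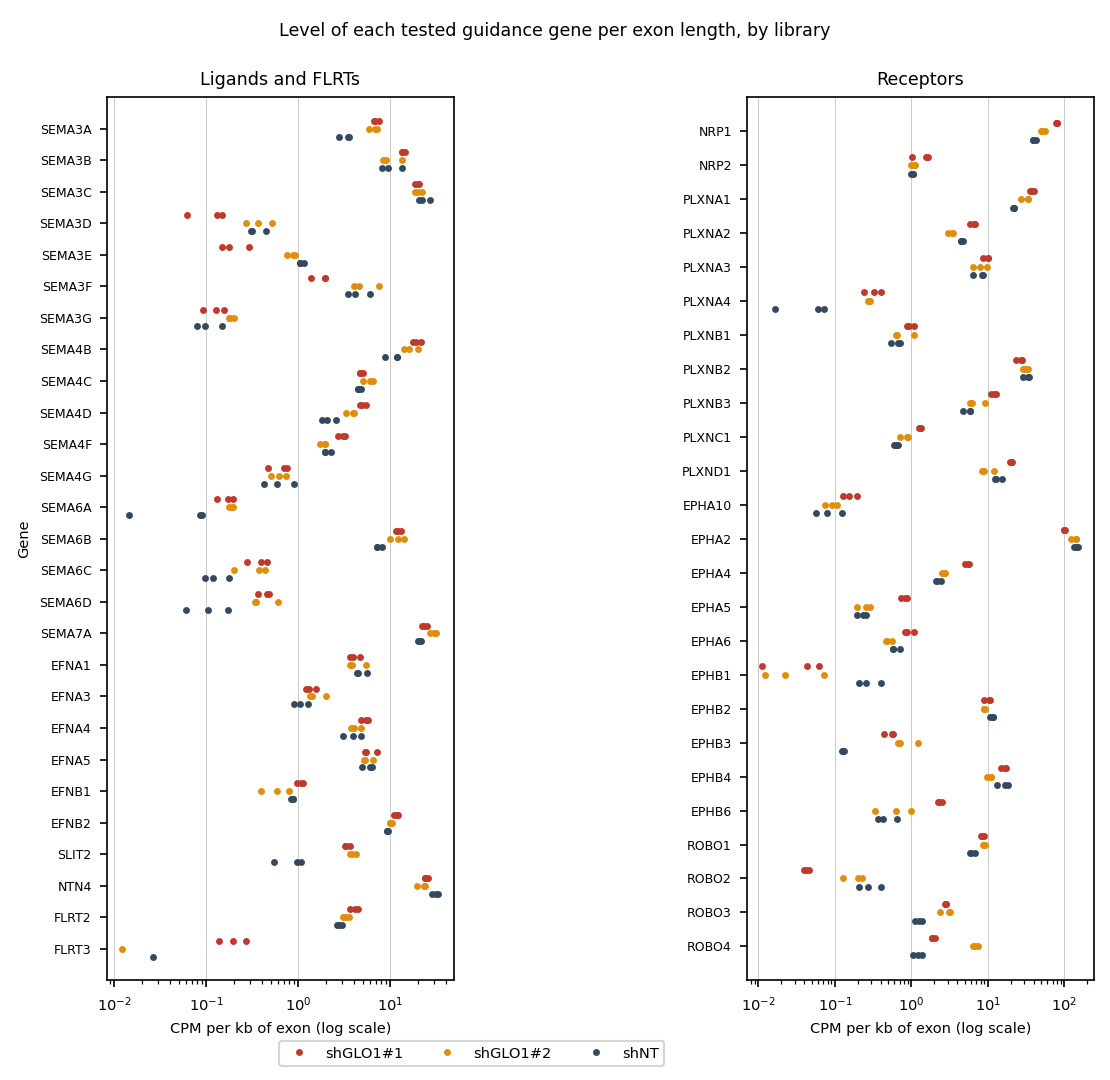
Points give CPM per kb of exon (log axis) in each library of shGLO1#1 (red), shGLO1#2 (orange) and shNT (dark), for tested ligands with FLRTs (left) and receptors (right), and libraries with no count are not drawn (FLRT3). EPHA2, at 143.7 CPM per kb on average in shNT, and NRP1, at 39.7, lead the receptors, and PLXNA4, SLIT2 and EPHB3 stand to the right of shNT in each clone.

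Other genes of the pathways were read from 3 lists made from textbook knowledge. Of 32 effectors of semaphorins and plexins, 26 were tested, and 2 were called higher and 0 lower in shGLO1#1 (median log2 fold change 0.05), against 1 higher and 1 lower in shGLO1#2 (median -0.09). Of all genes tested, 5.98% (shGLO1#1) and 5.09% (shGLO1#2) were called higher, and 2.75% (shGLO1#1) and 2.59% (shGLO1#2) lower. DPYSL3, a CRMP protein of growth cones, averaged 7.84 ± 2.12 CPM in shGLO1#1, 6.51 ± 1.34 CPM in shGLO1#2 and 1.47 ± 0.791 CPM in shNT (SD, n = 3), with log2 fold changes of 2.39 in shGLO1#1 (adjusted p = 3.52e-05) and 2.12 in shGLO1#2 (adjusted p = 0.000136). RND1, which binds plexins, was called only in shGLO1#1 (1.55, adjusted p = 0.0037) and was -0.42 in shGLO1#2. RND1 averaged 0.553 CPM in shNT, under the filter limit of 0.606 CPM, so it passed the filter through libraries of a clone. MET, the HGF receptor that couples to B-type plexins, was called lower only in shGLO1#2 (-1.32, adjusted p = 5.02e-08) and was -0.30 in shGLO1#1. RND1 and MET also differed between the clones (-1.96 and -1.01 in shGLO1#2 against shGLO1#1).

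Of 33 effectors of Ephs and ephrins in the files, 30 were tested, and 3 were called higher and 1 lower in shGLO1#1 (median 0.02), against 3 higher and 0 lower in shGLO1#2 (median 0.01), where the shares of all genes tested were 5.98% (shGLO1#1) and 5.09% (shGLO1#2) higher, and 2.75% (shGLO1#1) and 2.59% (shGLO1#2) lower. KALRN, which acts in ephrin-B and Eph signalling in neurons, averaged 2.12 ± 0.629 CPM in shGLO1#1, 8.92 ± 1.56 CPM in shGLO1#2 and 0.140 ± 0.0775 CPM in shNT, with log2 fold changes of 3.79 in shGLO1#1 (adjusted p = 1.08e-05) and 5.87 in shGLO1#2 (adjusted p = 4.85e-08). NCK2, the adaptor that binds phosphorylated ephrin-B, was higher by 1.20 in shGLO1#1 (adjusted p = 0.000156) and 1.64 in shGLO1#2 (adjusted p = 1.15e-05). ELMO1 had 43 counts in shGLO1#1, 36 in shGLO1#2 and 3 in shNT and was called higher in each comparison, and CHN1, a Rac GAP downstream of EPHA4, was called lower in shGLO1#1 (-1.03) and was -0.46 in shGLO1#2. The call of CHN1 was lost without the third shGLO1#1 replicate or the first shNT replicate, which left 0 genes of this list lower. KALRN and ELMO1 averaged 0.140 and 0.0619 CPM in shNT, under the filter limit of 0.606 CPM. They passed the filter through libraries of a clone, and the counts of called genes include them.

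Of 36 partners of Slits, netrins and FLRTs in the files, 25 were tested, and 7 were called higher and 0 lower in shGLO1#1 (median 0.35), against 6 higher and 0 lower in shGLO1#2 (median 0.28). The shares of all genes tested were again 5.98% (shGLO1#1) and 5.09% (shGLO1#2) higher, and 2.75% (shGLO1#1) and 2.59% (shGLO1#2) lower. Besides NELL2, the largest changes were those of 4 genes. ADGRL3, a latrophilin that binds FLRT3, had log2 fold changes of 2.24 in shGLO1#1 and 3.29 in shGLO1#2, and TRIM9, a ubiquitin ligase that binds DCC, had 2.78 in shGLO1#1 and 2.80 in shGLO1#2. EVL, an actin regulator of the Ena/VASP family, had 3.06 in shGLO1#2 and 0.50 in shGLO1#1, and SRGAP3, which binds Robo receptors, had 3.05 in shGLO1#2 and 1.047 in shGLO1#1, where neither passed the test. In shNT ADGRL3 had 10 counts, SRGAP3 had 7 and TRIM9 had 9. Like NELL2, they averaged under the filter limit of 0.606 CPM in shNT, so these genes passed the filter through libraries of a clone. The counts of called genes include them. NEO1, the netrin receptor neogenin, was named after its values were seen. It averaged 55.8 ± 3.02 CPM in shGLO1#1, 24.2 ± 1.94 CPM in shGLO1#2 and 14.0 ± 1.15 CPM in shNT, with log2 fold changes of 1.99 in shGLO1#1 (adjusted p = 5.7e-09) and 0.78 in shGLO1#2 (adjusted p = 1.82e-05), and it was called in shGLO1#1 only.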

How the data were processed

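RNA of 9 libraries was sequenced, 3 biological replicates each of the shGLO1#1 clone, the shGLO1#2 clone and the shNT control clone. Per the submitters' processing notes, reads were made with bcl2fastq 2.17, aligned to hg19 with TopHat2 2.1.1 and counted per gene with HTSeq. The kit does not mark strand, and HTSeq's version, its strand setting and its annotation were not given in the sources used here. Unnormalized counts for each gene symbol were deposited by the authors, and the library depths bound the precision of low genes.

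Fits were made with edgeR 4.0.16 (R 4.3.3). Genes passed filterByExpr (minimum count 10, total 15), which left 13704 of 26364, and were scaled by TMM. Quasi-likelihood models of all 9 libraries gave 3 comparisons, with p-values adjusted over all genes (Benjamini-Hochberg), and a call needed a change over 1 on the log2 scale with an adjusted p below 0.05. The SE is the absolute log2 fold change over the square root of F. The fits were tested on simulated data. Libraries of a group differed by more than sampling noise (chi-square per degree of freedom 3.10 to 8.60). A group with 1 to 3 counts was given a ratio with an exact 95% interval. Exon lengths came from GENCODE 29 and were matched by symbol, and promoters and gene order from RefSeq (GRCh38.p14), since no annotation of the authors' build was used.

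Deviations from the group means of libraries with the same replicate number correlated at 0.21, 0.185 and 0.309 between shGLO1#2 and shNT. The highest for another number was -0.0127, -0.0697 and -0.139, so libraries of the same number were the more alike there. What the numbers stand for was not given, and the pairing itself was not tested. Between shGLO1#2 and shGLO1#1 the same numbers gave 0.197, 0.0691 and 0.341. These values each lay above the highest for another number (0.0751, -0.00506 and -0.151), so libraries of the same number were the more alike between the clones too. Between shGLO1#1 and shNT the same numbers gave -0.0339, 0.0558 and 0.25, and the highest for another number was 0.121, 0.134 and -0.0828. There the numbers matched in the third replicate only. The alternatives were DESeq2 1.42.0, RLE size factors, other filters, a replicate block, the 2 groups alone, each library left out and no fold limit. The members were taken by symbol, and they, the lists, the pairs and the naming rule (every member, and up to 5 called genes of each list with the largest changes) were chosen with earlier results of these data known. The report names NEO1 beyond that rule.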

Additional observations from a re-analysis of the deposited data

Results flagged for a closer look

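In shGLO1#2 against shGLO1#1, 10 of the 52 genes tested were higher and 18 lower at an edgeR adjusted p under 0.05 with no fold limit, where 3126 and 3243 of all 13704 genes were. Among these, 13 met 1 of 2 further conditions. The share of all genes tested that met them is not given here, so the number is a description only. For 9 of them the gene was called in the comparison of 1 clone with shNT, not in that of the other, and between the clones. With log2 fold changes of shGLO1#2 against shGLO1#1, these were EPHA4 (-1.03, adjusted p = 6.08e-07), EPHA5 (-1.71, adjusted p = 3.76e-06), EPHB6 (-1.85, adjusted p = 8.15e-05), FLRT3 (-5.21 as fitted, adjusted p = 0.000127, from 1 count in shGLO1#2), ROBO2 (2.099, adjusted p = 0.000428), ROBO4 (1.84, adjusted p = 4.79e-08), SEMA3D (1.73, adjusted p = 0.000749), SEMA3E (2.08, adjusted p = 3.03e-06) and SEMA3F (1.60, adjusted p = 0.000142).

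For the other 4 every library of one clone lay above shNT and every library of the other below it. PLXNA2 differed by -0.94 (adjusted p = 3.71e-07), PLXND1 by -1.04 (adjusted p = 5.64e-06), EPHA6 by -0.89 (adjusted p = 0.00112) and EFNB1 by -0.82 (adjusted p = 0.00765). In shGLO1#1 against shNT the log2 fold changes were 0.48 for PLXNA2, 0.58 for PLXND1, 0.57 for EPHA6 and 0.28 for EFNB1, and in shGLO1#2 against shNT they were -0.46 for PLXNA2, -0.46 for PLXND1, -0.32 for EPHA6 and -0.54 for EFNB1. Against shNT, EFNB1 did not pass the edgeR test in shGLO1#1 (adjusted p = 0.292) or shGLO1#2 (adjusted p = 0.0784). EPHA6 did not pass it in shGLO1#2 (adjusted p = 0.202). The shRNAs, the depth of GLO1 silencing and the clones differ together, so their parts cannot be told apart.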

How the results depend on the processing

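None of the calls turned its direction under the 15 alternatives fitted. In all of them 18 of 20 calls were kept in shGLO1#1 against shNT, 9 of 10 in shGLO1#2 against shNT and 8 of 10 between the clones, where EPHB1 and FLRT3 count as kept although neither was tested at a minimum mean of 1 CPM. With no fold limit the counts of genes higher and lower, of the 52 tested, were 31 and 9 in shGLO1#1, 20 and 6 in shGLO1#2 and 10 and 18 between the clones. Over all 13704 genes tested they were 3101 and 3166 in shGLO1#1, 2510 and 2711 in shGLO1#2 and 3126 and 3243 between the clones. At a minimum mean of 1 CPM, 0 genes were lower in shGLO1#2 (EPHB1 was filtered out), and 1 effector of semaphorins and plexins was higher in shGLO1#1, while with no filter 2 such effectors were higher in shGLO1#2. Leaving out 1 library each time gave 3 to 6 genes lower in shGLO1#2 than in shGLO1#1 (3 without the second shGLO1#2 replicate, which ended the calls of EPHA4 and PLXND1) and 0 to 1 effectors of Ephs and ephrins lower in shGLO1#1 (CHN1, lost without the third shGLO1#1 or the first shNT replicate). Calls near the limit moved with single libraries. EPHA10 was 1.22 in shGLO1#1 without the second shNT replicate, SEMA3G 1.08 in shGLO1#2 without the third shNT replicate, EFNB1 -1.08 without the first shGLO1#2 replicate and PLXNA2 -1.003 without the first shGLO1#1 replicate. With the replicate number as a block, 15 and 5 guidance genes were called in shGLO1#1, 9 and 1 in shGLO1#2, and 5 and 5 between the clones, and it changed none of these calls. At these depths, genes under about 1 CPM have few counts, and their fold changes are imprecise.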
